A study of Mus musculus with 4 samples.

Results

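The genes described are 10 that are commonly read as a gauge of the epithelial-to-mesenchymal transition (EMT), chosen by name from the 21862 genes listed with a unique symbol. They are 7 transcription factors (Twist1, Twist2, Snai1, Snai2, Zeb1, Zeb2 and Prrx1) and 3 cadherins (Cdh1, Cdh2 and Cdh11). RNA was sequenced from N31 neural progenitor cells (NPCs), a mouse line obtained by differentiating iPSCs that carry reprogramming factors under a Dox-inducible promoter, on type I collagen-coated matrices of 0.5 kPa (soft) or 12 kPa (stiff). The medium in all conditions lacked EGF and bFGF. Control NPCs and NPCs carrying a retroviral short hairpin RNA against Srf (shSrf#1, called Srf-knockdown NPCs) were compared on each matrix, in 1 line with 1 hairpin, and the control is labelled only as such. There is 1 library per condition (4 in all). Differences between conditions therefore lack a replicate check, and no p-value is given.

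In EMT, epithelial cells dissolve their cadherin junctions and take on the shape and motility of mesenchymal cells. Twist proteins (basic helix-loop-helix), Snai and Zeb proteins (zinc finger) and Prrx1 (homeodomain) direct this programme, and Snai and Zeb proteins repress Cdh1 by binding E-boxes in its promoter. Cadherins are calcium-dependent adhesion proteins that bind the same type on the neighbouring cell and are anchored to actin through catenins. Cdh1 (E-cadherin) holds epithelia together, Cdh2 (N-cadherin) is the main cadherin of the neural tube and of many mesenchymal cells, and Cdh11 (OB-cadherin) belongs to the type II cadherins and is typical of mesenchyme. Srf is a transcription factor that activates cytoskeletal genes with its cofactor Mkl1 when actin polymerizes, as it does on stiff matrices.

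The unit is FPKM, reads scaled by transcript length and sequencing depth, so levels of different genes can be compared. The depth was estimated at 29100000 and 24100000 reads for control NPCs at 0.5 and 12 kPa and at 45100000 and 62300000 for Srf-knockdown NPCs. Counting errors below come from reads estimated in this way, are approximate and do not cover culture or library preparation. A gene was included when its FPKM exceeded 2 in all 4 libraries, which held for 10489 genes and for 9 of the 10 members, all but Cdh1. A gene that is high in 1 population but not above 2 in a library of the other is left out by this filter, so counts over genes above the minimum do not cover a whole list. Srf itself had an FPKM of 34.4 and 35.6 in the control libraries and 16.2 and 17.4 in the knockdown libraries at 0.5 and 12 kPa, a log2 ratio of -1.09 at 0.5 kPa and -1.03 on the stiff matrix. Of 12 neural progenitor markers, 4 (Sox2, Pax6, Nes and Slc1a3) were above the minimum, and Sox1, Olig2 and Hes5 were listed at 0 in all libraries. All 23 mesenchymal genes of a list were above it, as were 5 of 7 fibroblast markers. In these bulk samples, fewer cells of a type and less RNA per cell cannot be told apart.

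All 7 EMT transcription factors were expressed in every library, while the epithelial cadherin was close to absent. Prrx1, a homeodomain factor of limb and craniofacial mesenchyme, was the highest, with an FPKM of 222 and 213 in the control libraries and 216 and 203 in the knockdown libraries at 0.5 and 12 kPa. It made up 48.8% to 55.9% of the summed FPKM of the 7 factors, and its level was above that of 97.6% to 97.9% of all listed genes. Cdh1 had an FPKM of 0.146 and 0.139 in the control libraries and 0.188 and 0.205 in the knockdown libraries, which rests on an estimated 14.2 to 54.0 reads. For comparison, 3 reads on Cdh1 correspond to an FPKM between 0.0114 and 0.0294. Cdh1 was therefore detected above a few reads but at 0.289% to 0.555% of the summed FPKM of Cdh1 and Cdh2.

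**Figure D1:**
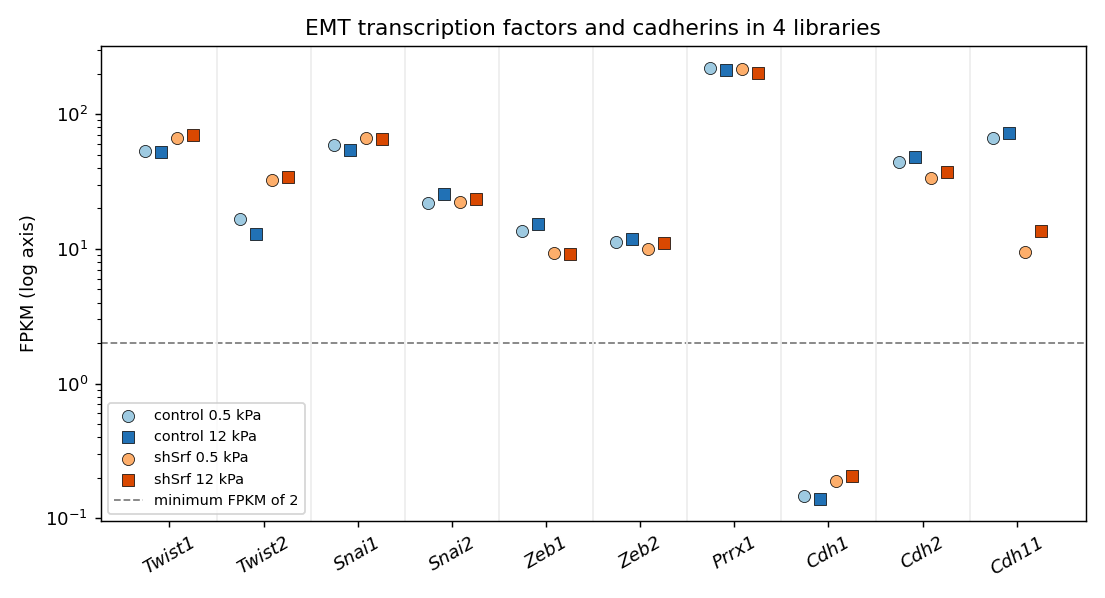
FPKM (log axis) of the 10 genes in each of the 4 libraries (blue, control NPCs. Orange, Srf-knockdown NPCs. Circles, 0.5 kPa. Squares, 12 kPa), with 1 library per point and the minimum FPKM of 2 dashed. Prrx1 is highest in every library, Cdh1 lies at 0.139 to 0.205, and the orange points of Cdh11 (9.47 and 13.6) lie far below the blue ones (66.9 and 72.3).

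The order of the 10 genes was not the same in the control and the knockdown. In control NPCs on the soft matrix the order from high to low was Prrx1, Cdh11, Snai1, Twist1, Cdh2, Snai2, Twist2, Zeb1, Zeb2 and Cdh1, and every neighbouring pair differed beyond counting error. On the stiff matrix Zeb1 and Twist2 changed places, and Snai1 with Twist1 and Twist2 with Zeb2 lay within counting error of each other. In Srf-knockdown NPCs at 0.5 kPa Cdh11 stood 8th of the 10, between Zeb2 and Zeb1 and within counting error of both. There Snai1 and Twist1 (66.8 and 66.5) and Cdh2 and Twist2 (33.8 and 32.4) could not be separated either. At 12 kPa Cdh11 stood 7th, and all neighbouring pairs differed beyond counting error.

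The largest difference among the members was in Cdh11, which was lower in Srf-knockdown NPCs at both stiffnesses. Its FPKM was 66.9 on the soft and 72.3 on the stiff matrix in the control, against 9.47 and 13.6 in the knockdown, so both knockdown libraries lay below both control libraries. The level was 7.07-fold lower at 0.5 kPa (log2 ratio -2.82, counting error interval -2.90 to -2.75) and 5.32-fold lower at 12 kPa (-2.41, -2.47 to -2.35). These log2 ratios were the 8th lowest and the 18th lowest of the 10489 genes. Cdh11 was the 1 member of 9 past 2-fold at 0.5 kPa, where 5.31% of all genes passed 2-fold in either direction. Cdh11 lies on chromosome 8 of mm10 from 102632095 to 102785493, and 61 genes above the minimum lie within 5 Mb of it. Of these, 1 at 0.5 kPa and 2 at 12 kPa were lower by more than 2-fold, where 2.86% and 2.22% of all genes were, and 1 (Rrad, named after its value was seen, log2 ratio 1.27) was higher by more than 2-fold at 12 kPa. Their median log2 ratio was 0.12 and 0.10. All 61 lie on the same side of Cdh11, and the nearest, Tk2, is 1.44 Mb away. Cdh1 lies 3.82 Mb from Cdh11 on that side of the same chromosome. Cdh8, left out by the minimum, lies 3.21 Mb away on the other side and was lower in the knockdown (log2 ratio -1.66 and -1.23).

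Smooth muscle markers moved in the same direction as Cdh11. Their summed FPKM over 6 genes was 758 and 687 in the control libraries and 55.8 and 81.3 in the knockdown libraries at 0.5 and 12 kPa, and all 6 were lower in the knockdown at both stiffnesses. Of the 4 above the minimum, 2 (Acta2 and Tagln) were lower past 2-fold, against 2.86% and 2.22% of all genes at 0.5 and 12 kPa. The minimum left out Cnn1 (calponin), which had 95.04 and 76.1 in the control libraries and 0.795 and 1.32 in the knockdown libraries, and Myh11, with 0.998 and 1.09 against 0.210 and 0.227. Acta2, smooth muscle actin, had an FPKM of 321 and 322 in the control libraries and 6.74 and 8.96 in the knockdown libraries. None of the 6 was at 0 in all libraries. Acta2 and Tagln are also classical targets of Srf, and the part of such cells in the Cdh11 difference was not tested. All 5 endothelial markers stayed under an FPKM of 1 in every library.

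Markers of neural progenitors and fibroblasts also differed between knockdown and control, in both directions. The 12 neural progenitor markers summed to 96.9 and 90.2 in the control libraries and 58.7 and 61.9 in the knockdown libraries. Sox2, a neural progenitor factor that these cells can also express from their Dox-inducible transgenes, was 4.44-fold and 3.71-fold higher in the knockdown. The part of the transgenes in the Sox2 difference was not tested. Pax6 had log2 ratios of 1.31 and 0.97. Nes (nestin) was 3.14-fold and 2.32-fold lower and the glutamate transporter Slc1a3 2.77-fold and 2.78-fold lower. Prom1, which the minimum left out, had 8.96 and 7.58 against 2.104 and 1.88, and Msi1, also left out, had 1.29 and 0.860 against 3.91 and 3.74. The 7 fibroblast markers summed to 1871 and 1723 in the control and 2089 and 2114 in the knockdown, of which Col3a1 alone made up 1584 to 1908. Among the others, Dcn (decorin) was 2.91-fold and 3.04-fold higher in the knockdown and Pdgfrb 1.52-fold and 1.65-fold higher, while Thy1, left out by the minimum, had 5.37 and 3.60 against 2.06 and 1.93. The part of these markers' cell types in the differences of Cdh11, Cdh2 and Twist2 was not tested. Col3a1, Prom1, Msi1, Thy1, Cnn1 and Myh11 are named after their values were seen.

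Cdh2 was also lower in Srf-knockdown NPCs, by far less. Its FPKM was 44.5 and 47.9 in the control libraries and 33.8 and 37.3 in the knockdown libraries, 1.32-fold lower at 0.5 kPa (log2 ratio -0.40, -0.45 to -0.35) and 1.28-fold lower at 12 kPa (-0.36, -0.41 to -0.31). Of all genes above the minimum, 16.7% and 19.2% had a lower ratio. The order of the pair was inverted. Cdh11 was 1.51 times Cdh2 in both control libraries and 0.280 and 0.364 times Cdh2 in the knockdown libraries. For Cdh1 the ratio of knockdown to control could not be settled at this depth, with a log2 ratio of 0.37 at 0.5 kPa (-0.45 to 1.18) and 0.56 at 12 kPa (-0.28 to 1.41).

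Over the 22 cadherin genes of the list the summed FPKM was 155 and 171 in the control libraries and 70.6 and 83.1 in the knockdown libraries. Cdh11 made up 43.1% and 42.4% of this sum in the control and 13.4% and 16.3% in the knockdown, while the share of Cdh2 was 28.6% and 28.1% in the control and 47.8% and 44.9% in the knockdown. The grouping of cadherins by type was made after their values had been seen. Of the 5 type II cadherins above the minimum (Cdh6, Cdh10, Cdh11, Cdh18 and Cdh24), 4 were lower by more than 2-fold at both stiffnesses, against 1.71% of all genes. The neural type II cadherin Cdh10 had an FPKM of 14.1 and 18.3 in the control libraries and 5.11 and 6.14 in the knockdown libraries. Cdh18 had 6.74 and 7.85 against 2.85 and 3.59, and Cdh6 had 6.84 and 8.73 against 3.35 and 4.22. Cdh24 stayed within 2-fold (log2 ratio -0.44 and -0.13). The type II cadherins that the minimum left out did not all move the same way. Cdh9 was higher in the knockdown, with 0.410 and 0.453 against 1.19 and 1.06. Cdh8 was lower, with 1.70 and 1.93 against 0.537 and 0.824. Cdh8 and Cdh9 are named after their values were seen. Summed without Cdh11, the 13 listed type II cadherins still differed, with log2 ratios of -0.98 (soft) and -0.97 (stiff). Cdh13, a cadherin held to the membrane by a lipid anchor, was also higher in the knockdown. It had 5.14 and 4.11 in the control libraries and 7.64 and 8.20 in the knockdown libraries. This was 1.49-fold higher at 0.5 kPa and, just within 2-fold, 1.997-fold higher at 12 kPa.

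**Figure D2:**
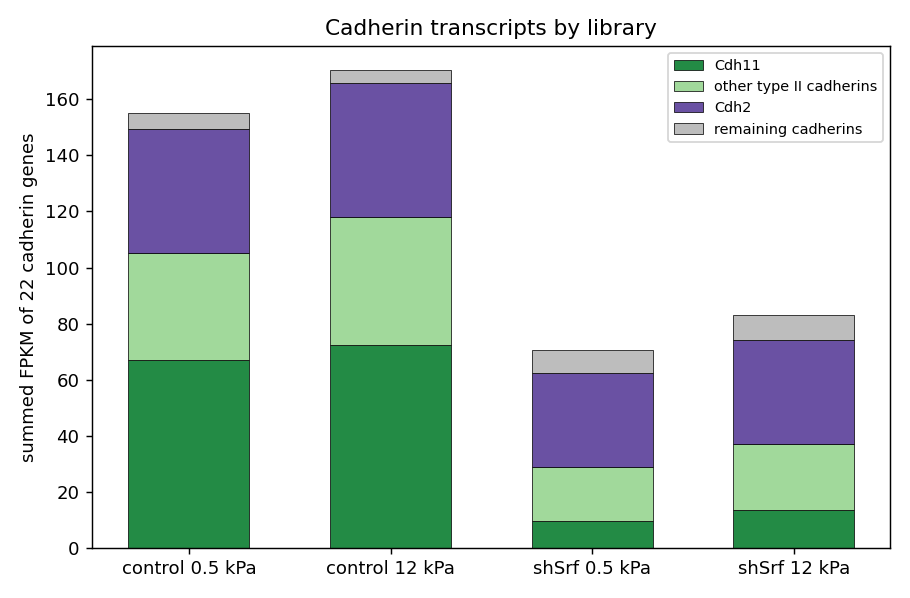
Summed FPKM of 22 cadherin genes in each of the 4 libraries, stacked from 0 as Cdh11, the other type II cadherins, Cdh2 and the remaining cadherins, with 1 library per bar. The total is 155 and 171 in the control libraries and 70.6 and 83.1 in the knockdown libraries, and the Cdh11 segment accounts for most of the difference.

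The catenins that bind cadherin tails did not all follow. Ctnnb1 (beta-catenin), which binds the cadherin tail and also serves Wnt signalling, had an FPKM between 295 and 325 in the 4 libraries, and Ctnna1, which links it to actin, between 143 and 165. Ctnnd1 (p120), which binds the part of the tail next to the membrane, had 118 and 123 in the control libraries and 55.6 and 62.6 in the knockdown libraries. These 3 genes were chosen after their values were seen. Vcl (vinculin), an actin linker of junctions and focal adhesions, had 143 and 127 against 62.2 and 66.3, and Nectin3, an immunoglobulin-type adhesion molecule of adherens junctions, had 38.3 and 42.4 against 15.3 and 15.1. Of the 10 catenin and adaptor genes above the minimum, 3 were past 2-fold lower at 0.5 kPa and 1 at 12 kPa, where 2.86% and 2.22% of all genes were, and none was past 2-fold higher. Among those higher, Jup (plakoglobin) had log2 ratios of 0.17 and 0.35.

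Among the transcription factors, Twist2 differed most between knockdown and control, in the direction opposite to Cdh11. Twist2 and its paralogue Twist1 dimerize with E proteins through their helix-loop-helix region and maintain mesenchymal cells in an undifferentiated state. Twist2 had an FPKM of 16.7 and 12.9 in the control libraries and 32.4 and 34.3 in the knockdown libraries at 0.5 and 12 kPa, and both knockdown libraries lay above both control libraries. The level was 1.94-fold higher at 0.5 kPa (log2 ratio 0.96, 0.82 to 1.099) and 2.65-fold higher at 12 kPa (1.41, 1.25 to 1.57), where only 0.925% of all genes had a higher ratio. With Cdh11 it was 1 of the 2 members past 2-fold at 12 kPa, where 4.96% of all genes passed 2-fold. Twist1 had 53.0 and 52.2 in the control libraries and 66.5 and 70.7 in the knockdown libraries, which is 1.26-fold and 1.35-fold higher. Twist2 thus was 0.315 and 0.248 times Twist1 in control NPCs and 0.487 and 0.486 times Twist1 in Srf-knockdown NPCs.

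Base composition moved with these ratios. Across all genes with a transcript sequence the median log2 ratio of knockdown to control ranged from -0.18 in the tenth of lowest GC content to 0.22 in the tenth of highest GC content at 0.5 kPa, and from -0.28 to 0.35 at 12 kPa. The transcripts of Twist1, Twist2 and Snai1 have a GC content of 59.7%, 57.4% and 59.8%, against a median of 50.3%. Centred on genes of like GC content, the log2 ratio of Twist2 was 0.78 and 1.11 and that of Twist1 0.13 and 0.10 at 0.5 and 12 kPa. Those of Cdh11 were -2.68 and -2.22.

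The Twist genes share a short stretch of sequence, which bears on whether their reads can be told apart. The longest identical run between the longest coding transcripts of Twist1 and Twist2 is 23 bases and lies in the coding part of exon 1, in the helix-loop-helix region. In NCBIM37 it lies at chr12:34643245-34643267 for Twist1 and at chr1:93698468-93698490 for Twist2, on the plus strand of both. The shared run, shown because no longer identical run links the pair, is
Twist1 and Twist2: ctgcgcaagatcatccccacgct
The longest identical run was also 23 bases between Snai1 and Snai2 and between Zeb1 and Zeb2, 15 between Cdh11 and Cdh2 and 26 between Cdh1 and Cdh2. The read length is not given in the sources used here, and reads of low mapping quality had been removed.

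Snai1 and Snai2, zinc finger repressors that bind E-boxes, differed little between knockdown and control. Snai1 had an FPKM of 58.8 and 54.1 in the control libraries and 66.8 and 65.0 in the knockdown libraries, a log2 ratio of 0.18 on the soft and 0.27 on the stiff matrix. With GC centring its log2 ratio was -0.01 and -0.07, within counting error of 0 at both stiffnesses. Snai2, the family member best known from neural crest migration, had 21.8 and 25.7 in the control libraries and 22.3 and 23.4 in the knockdown libraries. Its log2 ratio was 0.03 (-0.08 to 0.14) at 0.5 kPa and -0.14 (-0.24 to -0.04) at 12 kPa, the latter at the edge of the 1.1-fold threshold and at 0.01 with GC centring. Snai1 was 2.69 and 2.103 times Snai2 in control NPCs and 2.997 and 2.78 times Snai2 in Srf-knockdown NPCs.

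The promoter sequences of Twist2, Twist1 and Snai1 are shown because these 3 members were higher in Srf-knockdown NPCs past 1.1-fold at both stiffnesses before GC centring. Of the 10 members, 5 (Twist1, Twist2, Snai1, Prrx1 and Zeb2) have an entry in the RefSeq promoter table (GRCm38.p6). Given are the 250 bases before the start of transcription, 5′ to 3′ on the plus strand that carries all 3 genes, chr1:91801211-91801460 for Twist2, chr12:33957421-33957670 for Twist1 and chr2:167537945-167538194 for Snai1. E-boxes, the CANNTG motif bound by Twist, Snai and Zeb proteins and read the same on both strands, are in capitals.
Twist2: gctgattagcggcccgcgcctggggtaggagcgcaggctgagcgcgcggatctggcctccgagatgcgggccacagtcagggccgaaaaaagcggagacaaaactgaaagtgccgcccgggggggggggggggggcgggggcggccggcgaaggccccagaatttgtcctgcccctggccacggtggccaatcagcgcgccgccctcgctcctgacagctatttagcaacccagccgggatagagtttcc
Twist1: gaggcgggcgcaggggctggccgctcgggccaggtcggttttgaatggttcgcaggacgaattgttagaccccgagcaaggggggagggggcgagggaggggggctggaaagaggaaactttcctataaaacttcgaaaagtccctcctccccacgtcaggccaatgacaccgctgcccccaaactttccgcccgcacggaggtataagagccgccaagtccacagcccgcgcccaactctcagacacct
Snai1: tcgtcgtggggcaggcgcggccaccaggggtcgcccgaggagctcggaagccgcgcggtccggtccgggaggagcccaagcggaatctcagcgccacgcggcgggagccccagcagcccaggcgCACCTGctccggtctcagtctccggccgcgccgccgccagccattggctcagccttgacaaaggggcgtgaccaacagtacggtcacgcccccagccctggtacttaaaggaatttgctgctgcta
The Snai1 window holds 1 E-box, CACCTG, which begins 126 bases before the start, and the windows of Twist1 and Twist2 hold none. CACCTG, or CAGGTG on the other strand, is the form preferred by Snai and Zeb proteins. Of all 32851 promoter windows of this length, 66.2% hold CANNTG and 17.2% hold CACCTG or CAGGTG. The CArG box, the motif of Srf, was searched on both strands and found in none of the 8 windows of members (4 of them alternative starts of Zeb2) and in 1.47% of all windows. Windows of 250 bases say nothing of sites farther away.

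Zeb1 and Zeb2, large zinc finger and homeodomain proteins, parted from each other. Zeb1 had an FPKM of 13.6 and 15.3 in the control libraries and 9.34 and 9.23 in the knockdown libraries, and both knockdown libraries lay below both control libraries. It was 1.45-fold lower at 0.5 kPa (log2 ratio -0.54, -0.62 to -0.46) and 1.65-fold lower at 12 kPa (-0.73, -0.80 to -0.65), where 5.28% of all genes had a lower ratio. Centring by GC content gave -0.48 and -0.61. Zeb2, which also acts in neural crest and in neuronal and glial development, had 11.3 and 11.9 in the control libraries and 10.0 and 11.1 in the knockdown libraries. Its log2 ratio was -0.17 and -0.10, and with GC centring 0.03 and 0.24. The centred value lay within counting error of 0 at 0.5 kPa, and the direction turned at 12 kPa. Zeb1 made up 54.6% and 56.2% of the summed FPKM of the pair in the control and 48.3% and 45.5% in the knockdown.

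Prrx1 differed by 1.03-fold at 0.5 kPa and 1.05-fold at 12 kPa between knockdown and control, within 1.1-fold at both stiffnesses. Its log2 ratio was -0.04 and -0.07, and with GC centring 0.06 and 0.12. Its paralogue Prrx2 had an FPKM of 141 and 148 in the control libraries and 94.9 and 93.6 in the knockdown libraries, so that Prrx1 was 1.58 and 1.44 times Prrx2 in the control and 2.27 and 2.17 times Prrx2 in the knockdown. At the 1.1-fold threshold used in the methods of the study, 7 of the 9 members above the minimum differed between knockdown and control at each stiffness, where 73.1% of all genes did so at 0.5 kPa and 73.6% at 12 kPa. Twist1, Twist2 and Snai1 were higher at both stiffnesses, as were 30.3% of all genes, and Zeb1, Cdh2 and Cdh11 were lower at both, as were 28.8%. On the log2 scale the 9 members had a median of -0.04 (soft) and -0.10 (stiff), against 0.01 for all genes at each stiffness. Control and knockdown libraries also differed in depth, and the part of depth and base composition in these differences was not tested beyond the GC centring.

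**Figure D3:**
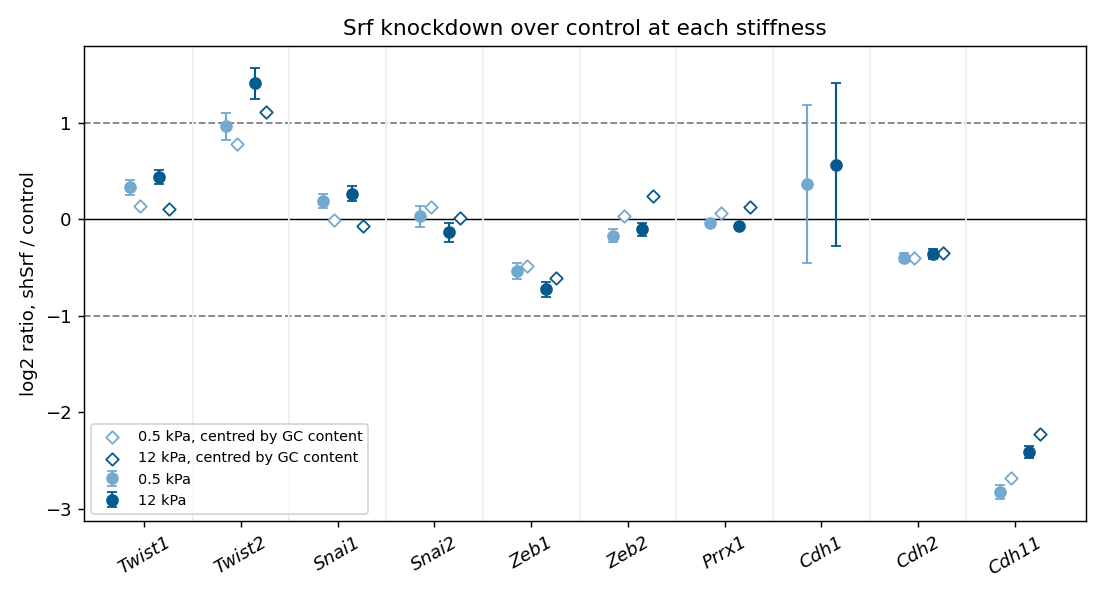
Knockdown over control, as log2 ratios of the 10 genes, at 0.5 kPa (light) and 12 kPa (dark), with bars for the interval from counting error alone, open diamonds for values centred by GC content, which are missing for Cdh1, and dashed lines at 2-fold. Cdh11 lies at -2.82 and -2.41 and Twist2 at 0.96 and 1.41, and the diamonds of Snai1, Zeb2 and Prrx1 at both stiffnesses and of Snai2 at 12 kPa lie on the other side of 0 from their points.

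**Figure D4:**
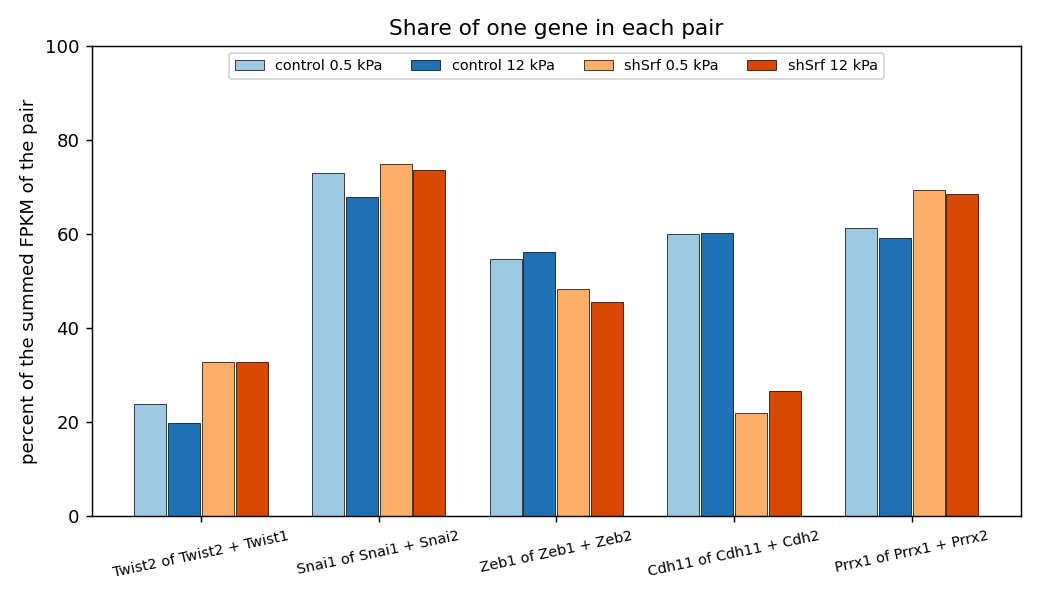
Share of the first gene in the summed FPKM of a pair, in percent, in each of the 4 libraries, with 1 library per bar. Twist2 makes up 19.8% to 23.9% of the Twist pair in control NPCs and 32.7% to 32.8% in Srf-knockdown NPCs, and Cdh11 60.1% against 21.9% and 26.7% of its pair with Cdh2.

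The study asked how matrix stiffness acts on gene expression. In control NPCs, 3 of the 9 members differed by more than 1.1-fold between 12 and 0.5 kPa, where 34.7% of all genes did so. Snai2 was 1.18-fold higher on the stiff matrix (log2 ratio 0.24, 0.12 to 0.36), Zeb1 was 1.12-fold higher (0.17, 0.08 to 0.25) and Twist2 was 1.29-fold lower (-0.37, -0.56 to -0.17). Only 3.32% of all genes had a lower ratio than Twist2, which rests on an estimated 548 and 352 reads. Cdh11 and Cdh2 were within 1.1-fold, with log2 ratios of 0.11 each. The Srf targets Acta2 and Tagln were not higher past 1.1-fold on the stiff matrix in these control NPCs. Their log2 ratios were 0.005 and -0.30. The paper reports that Srf targets such as Acta2 rose with stiffness in NPCs, in replicated measurements relative to Gapdh. The values here come from RNA sequencing with 1 library per condition.

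In Srf-knockdown NPCs, 3 of the 9 members were higher on the stiff matrix by more than 1.1-fold and none was lower, where 30.6% of all genes passed 1.1-fold in either direction and 17.6% were higher. Among the members Cdh11 stood out, 1.44-fold higher at 12 kPa (log2 ratio 0.52, 0.44 to 0.61), a ratio exceeded by 0.896% of all genes. This rise was not particular to Cdh11. All 4 smooth muscle markers above the minimum were also higher past 1.1-fold in Srf-knockdown NPCs, with log2 ratios of 0.94 for Tagln and 0.41 for Acta2. Zeb2 and Cdh2 were just past the threshold, with log2 ratios of 0.15 and 0.14. Twist2, Snai2 and Zeb1, which had passed it in control NPCs, had log2 ratios of 0.08, 0.07 and -0.02. No member passed 2-fold in either population, and 0.229% and 0.0858% of all genes did.

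**Figure D5:**
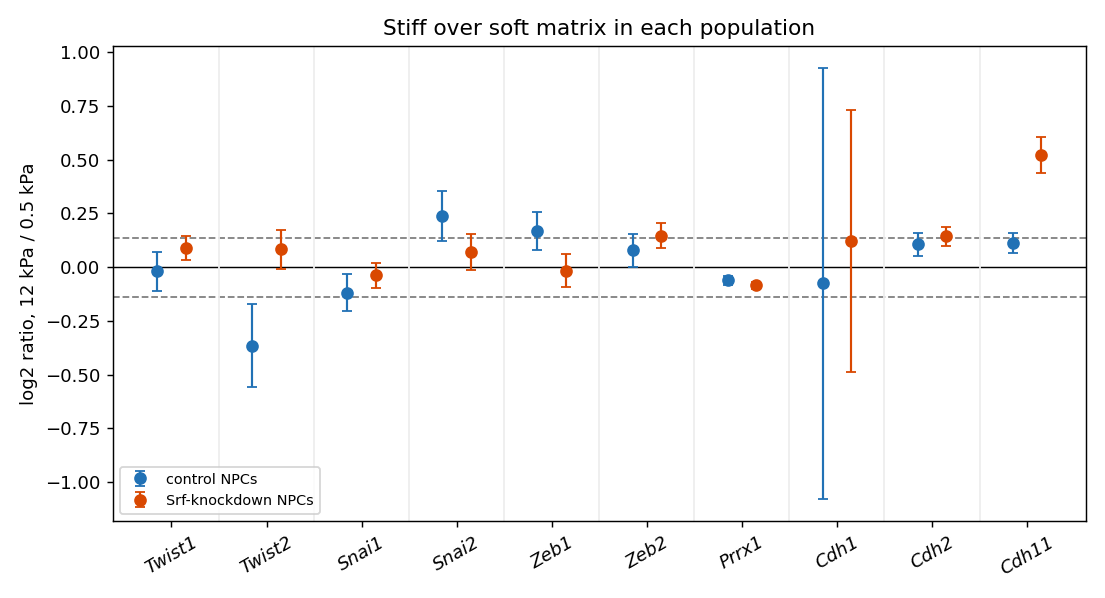
Stiff (12 kPa) over soft (0.5 kPa) matrix, as log2 ratios of the 10 genes, in control (blue) and Srf-knockdown (orange) NPCs, with bars for the interval from counting error alone and dashed lines at 1.1-fold. Twist2 in control NPCs (-0.37) and Cdh11 in Srf-knockdown NPCs (0.52) lie farthest from 0, and the intervals of Cdh1 are wide because it rests on few reads.

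The stiffness ratio differed between the populations beyond counting error for 5 members, namely Twist1, Twist2, Snai2, Zeb1 and Cdh11. So did 49.9% of the 9569 included genes with a transcript sequence, so the count of members is close to the background. The difference of the log2 ratios, Srf-knockdown minus control, was 0.45 for Twist2 and 0.41 for Cdh11, and 7.08% and 8.69% of all genes had a larger difference. For Snai2 and Zeb1 it was -0.17 and -0.18, and for Twist1 it was 0.11, and 37.6%, 33.5% and 55.3% of all genes had a larger difference. With 1 library per condition, counting error is the only error that could be set against these differences.

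The partners of the Twist proteins include the E proteins, with which they dimerize, and the Id proteins, which lack a DNA-binding region and sequester E proteins. All 7 genes of this list were above the minimum, and 2 of them at 0.5 kPa and 3 at 12 kPa were higher in Srf-knockdown NPCs by more than 2-fold, with none lower. Of all genes, 2.45% and 2.74% were higher past 2-fold. The 7 genes had a median of 0.88 (soft) and 0.89 (stiff) on the log2 scale, against 0.01 for all genes. Id2 had an FPKM of 9.79 and 11.2 in the control libraries and 46.6 and 47.8 in the knockdown libraries, 4.76-fold and 4.26-fold higher. Id1 had 81.4 and 90.4 against 184 and 198. The genes past 2-fold were Id1 and Id2, and at 12 kPa also Id4, so none was an E protein. The E proteins did not move alike. Tcf12 had 53.5 and 48.1 against 51.8 and 46.2, and Tcf4 had 69.7 and 61.7 against 66.5 and 68.4. Tcf3 had 84.4 and 76.3 against 128 and 132, with log2 ratios of 0.35 and 0.41 after GC centring. Tcf3, Tcf4 and Id4 are named after their values were seen.

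Of 17 other EMT-linked transcription factors, 7 were above the minimum. None of these passed 2-fold between knockdown and control, where 5.31% of all genes did so at 0.5 kPa and 4.96% at 12 kPa. With GC centring, Prrx2 (log2 ratio -1.14) and Scx (-1.08) were lower past 2-fold at 12 kPa. There 4.47% of all genes passed 2-fold in either direction. Hmga2, an architectural chromatin protein that acts upstream of Snai1 and Twist1, had an FPKM of 107 and 78.9 in the control libraries and 63.6 and 54.3 in the knockdown libraries, and Sox4 had 39.1 and 41.0 against 54.7 and 59.2. Foxc1, a forkhead factor of mesenchyme, had 13.8 and 17.7 against 20.8 and 22.6. The 15 corepressors and regulators of Snai and Zeb proteins were all above the minimum, with medians of 0.03 (soft) and 0.10 (stiff) on the log2 scale. Among them Hdac1 had log2 ratios of 0.39 and 0.39 and Suz12, a subunit of the polycomb complex PRC2, -0.42 and -0.56. Lats2, a Hippo pathway kinase, was the 1 gene of the 15 past 2-fold, at 0.5 kPa, where 5.31% of all genes passed 2-fold. It had 19.1 and 14.1 in the control libraries and 7.97 and 10.6 in the knockdown libraries.

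Genes that EMT factors are known to repress or induce did not move as 1 group. Of 27 epithelial genes, 6 were above the minimum. Of these 6, 3 at 0.5 kPa and 2 at 12 kPa were higher in Srf-knockdown NPCs by more than 2-fold, with none lower. Of all genes, 2.45% and 2.74% were higher past 2-fold. Genes left out by the minimum went both ways. Cldn6 had 1.29 and 1.02 against 5.03 and 3.88, and Lsr had 2.95 and 3.21 against 1.52 and 1.85. Cldn6 and Lsr are named after their values were seen. Krt19 had an FPKM of 2.998 and 3.54 in the control libraries and 19.5 and 19.4 in the knockdown libraries, and Krt8 had 20.0 and 13.7 against 51.2 and 41.0. These are keratins of simple epithelia. Epcam, an epithelial adhesion molecule, had between 2.22 and 3.04, and 15 of the 27 genes were under an FPKM of 1 in every library. The summed FPKM of the epithelial list was 90.7 and 76.3 in the control libraries and 139 and 127 in the knockdown libraries, and Cdh1, the marker that defines epithelia, was between 0.139 and 0.205.

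Of the 23 mesenchymal genes, 7 at 0.5 kPa and 5 at 12 kPa were lower in Srf-knockdown NPCs by more than 2-fold, and 1 was higher at each stiffness. Of all genes, 2.86% and 2.22% were lower past 2-fold, and 2.45% and 2.74% were higher. Postn (periostin), a matrix protein, had an FPKM of 188 and 259 in the control libraries and 30.2 and 36.8 in the knockdown libraries, and Col5a2, a fibrillar collagen chain, had 29.0 and 29.9 against 3.66 and 5.92. Lox, which crosslinks collagen, had 13.5 and 19.6 against 75.6 and 92.6. Vim (vimentin), the intermediate filament most used as a mesenchymal marker, was 1.40-fold and 1.62-fold higher in the knockdown. On the log2 scale the list had a median of -0.42 on the soft and -0.52 on the stiff matrix.

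Across the 4 libraries the genes with a pattern most like Cdh11, by the Euclidean distance between centred log2 FPKM, were Apod (distance 0.136), Col5a2 (0.137) and Mcam (0.219). Mcam, an adhesion molecule of the immunoglobulin type, had an FPKM of 51.8 and 57.7 in the control libraries and 7.88 and 9.24 in the knockdown libraries. Only 4 genes lay within a distance of 0.25 of Cdh11. Nearest to Twist2 were Pde1b (0.0628), Bcam (0.0747) and Nrp2 (0.0858), and 45 genes lay within 0.25. Nrp2, a semaphorin and VEGF coreceptor, had 14.3 and 11.8 in the control libraries and 30.04 and 30.8 in the knockdown libraries. The likeness rests on 4 libraries and is a description.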

How the data were processed

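The authors prepared libraries with a stranded mRNA kit, sequenced them single-end, trimmed reads with cutadapt 1.9.1, mapped them to mm10 with TopHat2 2.1.0, Bowtie2 2.2.8 and the GENCODE version M14 annotation, kept reads of high mapping quality and calculated 1 value per gene with Cufflinks 2.2.1. The deposited values are FPKM, which the study's methods call RPKM, and were used without rescaling. Whether counting used the strand is not given in the sources used here. Twist2, Zeb1, Zeb2 and Prrx1 overlap non-coding genes in RefSeq.

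Of 21997 rows per library, those of 63 symbols listed more than once were left out. As in the study's methods, genes above an FPKM of 2 in all 4 libraries were included, with a 1.1-fold threshold for stiffness. A 2-fold threshold was used for the knockdown. Ratios were log2 without a pseudocount. The members and gene lists were chosen with earlier results of these data known. From each list the genes named have the largest positive and negative mean log2 ratios of knockdown to control, up to 2 of each (for lists mostly below the minimum, the 2 highest genes), with Srf and the genes most like Cdh11 and Twist2, and other names are given as chosen later or belong to a count of 5 or fewer. Alternatives were other minimum values, a pseudocount of 1, median and 75th percentile scaling, other thresholds and centring within 50 bins of transcript GC content.

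Depth was estimated from whole-read steps among low values (FPKM below 0.1), and a gene's reads from its transcript length less 200 nucleotides. The intervals are 95% intervals (1.96 standard errors) from counting error alone. The scripts were tested on simulated data. Coordinates of genes and promoters are RefSeq on GRCm38.p6 (mm10), and transcript sequences are GENCODE M1 on NCBIM37, found for 91.2% of the included genes. Python 3.11.15, numpy 2.4.6, pandas 2.3.3 and matplotlib 3.10.9 were used.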

Additional observations from a re-analysis of the deposited data

Results flagged for a closer look

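Lats2, a kinase of the Hippo pathway that also acts on Snai1, was lower on the stiff than on the soft matrix in control NPCs (log2 ratio -0.43) and higher in Srf-knockdown NPCs (0.41), a difference of 0.84 between the populations. It is given because the libraries of the populations moved in opposite directions, but Lats2 was not alone in this. The stiffness log2 ratios of Tagln lay farther apart, at -0.30 (control) and 0.94 (knockdown). Cnn1, left out by the minimum, had -0.32 and 0.73. Both are named here after their values were seen. Of all genes, 7.08% had a difference larger in size than the 0.45 of Twist2. The share past the difference of Lats2, or with opposite directions in the populations, was not determined. The Lats2 difference was not tested, since each condition has 1 library.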

How the results depend on the processing

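No paired analysis was possible because there is a single library per condition and the labels give no shared replicate number, and for the same reason no replicate could be left out. The counts of members kept within 1.5 times their main value in 33 of 40 alternatives, and the other 7 were all changes of the fold threshold. For stiffness, 1.2-fold left 1 member in control NPCs (Twist2) and 1 in Srf-knockdown NPCs (Cdh11), and 1.5-fold left 0 in both, where 1.82% and 0.782% of all genes passed. For the knockdown, 1.1-fold gave 7 members at each stiffness and 1.5-fold gave 2 at 0.5 kPa (Twist2 and Cdh11). At 12 kPa, 1.5-fold added Zeb1 to Twist2 and Cdh11. Zeb2 in Srf-knockdown NPCs was within 1.1-fold with a pseudocount of 1, and Cdh2 with median centring or 75th percentile scaling. Of the single log2 ratios, GC centring moved 18 of 36 beyond counting error, by its construction most where a transcript is far from the median GC content, and a pseudocount of 1 moved only those of Cdh11 (to -2.70 and -2.33). Neither scaling moved any of 36. Depth limits Cdh1, which rests on too few reads for a ratio.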
